A study of Homo sapiens with 2 samples.

Results

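The 10 genes described here encode the 2 cytoplasmic actins and 8 abundant proteins that bind actin filaments, actin monomers or myosin. They were taken from the 57485 genes listed in each of 2 tables by symbol: ACTB, ACTG1, CFL1, PFN1, TMSB4X, TMSB10, MYL6, MYL12A, TPM3 and TPM4. They were selected on the levels and ratios measured in these libraries, so the values below are a description and no test was run on them. The libraries came from ARP1, a human multiple myeloma (MM) cell line, carrying a lentiviral shRNA under a doxycycline (Dox)-inducible promoter, and poly(A) RNA was sequenced from 1 sample labelled untreated and 1 labelled as treated with Dox. Both carry the shRNA construct. The sample titles and the series design name SRD5A1 as its target, whereas the genotype field of the Dox-treated sample names SRD5A2. The dose and duration of Dox are not given in the sources used here, and the labels do not say whether the cells are a clone or a pool.

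Actin exists as monomers and as filaments, and cells move it between both states. Cofilin severs filaments, profilin hands monomers to growing ends, and the beta thymosins hold monomers out of filaments. Tropomyosins lie along filaments, and the light chains belong to myosin II, the motor that pulls on them. Because the actin RNAs are abundant in most cells, ACTB is often the reference against which other RNAs are measured.

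In the library labelled Dox-treated, the RNAs of both actins, of cofilin, of profilin and of both thymosins were at lower levels. Those of MYL12A and TPM4 were at higher levels. By the main ratios used below, the RNAs of TPM3 and MYL6 differed least (log2 ratios of -0.21 and -0.02). Under some other scalings MYL12A differed less than TPM3. ACTB and TMSB10 were furthest down, each by 2.42-fold, and TPM4 was furthest up, by 1.95-fold. With 1 library per label there are no replicates, so none of these differences can be set against replicate error. The 95% intervals given below are exact intervals of the counts and cover counting error only. In a bulk library, fewer cells of a type and less RNA per cell cannot be told apart.

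Each library held many counts of these genes. The expected counts, which are estimates of the reads belonging to each gene, summed to 45918570 and 48728927 in the libraries labelled untreated and Dox-treated. All 10 genes passed the filter of at least 1 FPKM (fragments per length of transcript and per library total) in at least 1 library, as did 14859 genes in all. To each FPKM a pseudocount of 0.1 was added, the ratio of the library labelled Dox-treated over the one labelled untreated was put on the log2 scale, and genes past 2-fold are counted as lower or higher. The median ratio over the 14859 genes was 0.15, and it was 0.25 with TPM, -0.04 with TMM factors and -0.05 with DESeq2 size factors. SRD5A1 itself had 1375 counts (13.04 FPKM) in the library labelled untreated against 3014 counts (25.88 FPKM) in the other. Its log2 ratio was 0.98 (95% interval 0.89 to 1.08), so the targeted RNA goes against the direction that the Dox label would give, and every direction below rests on labels with that limit.

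Of 10 plasma cell markers, 9 reached 1 FPKM in each library, and their summed FPKM was 7842 and 5820. JCHAIN, the joining chain of antibodies, made most of that difference, at 5444.03 and 3515.08 FPKM, and without it the sum was 2398 and 2305 FPKM. TNFRSF17, SLAMF7, IRF4 and PRDM1 were higher in the library labelled Dox-treated, TNFRSF17 at 97.72 and 203.73 FPKM. Lower there were SDC1 (344.56 and 236.58 FPKM), XBP1 (834.39 and 715.87) and MZB1 (528.14 and 408.08), and CD38 was at 26.62 and 26.61. Markers of cells that are rich in actin were few. Of 7 fibroblast markers, 1 and 0 reached 1 FPKM, with DCN and LUM at 0, and their sum was 1.44 and 1.46 FPKM. Of 8 muscle markers, 1 reached 1 FPKM in each library, MYH11 at 2.09 and 7.05 FPKM, with DES, MYH7, MYH2 and TNNT2 at 0. All 8 summed to 3.37 and 7.91 FPKM, most of it from MYH11. For epithelium 2 and 3 of 5 markers reached 1 FPKM, with sums of 8.73 and 4.22 FPKM. For macrophages it was 1 and 0 of 5 with 1.99 and 1.62 FPKM, and for T cells 1 and 1 of 5 with 2.27 and 3.16 FPKM. Their part in the ratios was not tested.

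The 2 cytoplasmic actins are nearly the same protein made from separate genes, so the letters by which their RNAs differ decide how reads are shared between them. The coding sequences of ACTB (transcript ENST00000331789.10) and ACTG1 (ENST00000575842.5) are 1128 bases each, of which 1029 (91.2%) are identical and 99 differ. Their opening 60 bases, from the start codon in GENCODE release 29, hold 10 of these differences, shown in capitals.
ACTB: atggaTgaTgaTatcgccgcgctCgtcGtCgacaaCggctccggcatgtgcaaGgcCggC
ACTG1: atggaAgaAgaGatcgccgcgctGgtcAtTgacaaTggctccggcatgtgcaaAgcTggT
The 2 thymosins are further apart. TMSB4X (ENST00000380636.1) and TMSB10 (ENST00000233143.5) each have a coding sequence of 135 bases, of which 98 (72.6%) are identical. The whole coding sequences follow, with the 37 differing bases in capitals.
TMSB4X: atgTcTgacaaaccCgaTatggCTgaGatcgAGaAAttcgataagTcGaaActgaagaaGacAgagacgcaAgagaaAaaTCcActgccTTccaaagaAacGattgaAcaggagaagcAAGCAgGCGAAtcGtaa
TMSB10: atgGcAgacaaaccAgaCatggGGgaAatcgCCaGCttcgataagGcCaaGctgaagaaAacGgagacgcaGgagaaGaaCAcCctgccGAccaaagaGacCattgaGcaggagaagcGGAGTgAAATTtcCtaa
Over whole transcripts, no stretch of 150 bases, the length of a read, was shared with a transcript of another gene for 9 of the 10 genes. For TPM4, 16 of 9731 such stretches (0.164%) were shared. With stretches of 50 bases the shared part ran from 0.115% in CFL1 to 8.95% in TMSB4X.

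ACTB (ENSG00000075624.14), beta-actin, lies on the reverse strand of chr7:5527147-5563784 in GRCh38. It was listed at 2375.19 FPKM with 168027 counts in the library labelled untreated and at 981.76 FPKM with 74313 counts in the one labelled Dox-treated. The log2 ratio was -1.27 (95% interval -1.29 to -1.26). ACTB went from place 59 to place 114 when all genes were ordered by FPKM, and from 0.366% to 0.153% of all counts. ACTG1 (ENSG00000184009.11, chr17:81509971-81523847, reverse strand), gamma-actin, was listed at 2959.28 and 1366.65 FPKM with 104794 and 51183 counts, a log2 ratio of -1.11 (-1.13 to -1.10). The counting intervals of the 2 actins do not meet, so at this depth their ratios differed by more than counting error, with ACTB the lower.

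Which actin is the more abundant depends on the scale. By counts, ACTG1 stood at 0.624 of ACTB in the library labelled untreated and 0.689 in the other. Per length, by TPM, the same ratio was 1.25 and 1.39. The tables gave ACTG1 a mean transcript length of 1014 bases, shorter than its own coding sequence of 1128 bases, against 1784 and 1799 bases for ACTB. Summed over both actins, the level went from 5852 to 2755 TPM, a log2 ratio of -1.09 on that scale.

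CFL1 (ENSG00000172757.12, chr11:65823022-65862026, reverse strand) encodes cofilin, which severs filaments and speeds their turnover. It was listed at 1196.99 and 574.33 FPKM with 43233 and 21033 counts. The log2 ratio was -1.06 (-1.08 to -1.04), near that of ACTG1. The order of these 2 genes depends on the length term: by counts per library total CFL1 was at -1.13 and ACTG1 at -1.12, and the tables gave CFL1 a mean transcript length of 1030 and 997 bases. Relative to ACTB, the TPM of CFL1 was 0.504 in the library labelled untreated and 0.585 in the one labelled Dox-treated. Among the 10 genes it went from place 5 to place 7 by FPKM.

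The monomer-binding genes were all at lower levels in the library labelled Dox-treated, but by unequal amounts. PFN1 (ENSG00000108518.7, chr17:4945652-4949061, reverse strand), profilin, was listed at 570.29 and 306.16 FPKM with 27194 and 15473 counts, a log2 ratio of -0.90 (-0.93 to -0.87). TMSB10 (ENSG00000034510.5, chr2:84905625-84906675, forward strand), thymosin beta 10, was listed at 2819.34 and 1164.33 FPKM with 32774 and 14211 counts, a log2 ratio of -1.28 (-1.30 to -1.25). TMSB4X (ENSG00000205542.10, chrX:12975108-12977227, forward strand), thymosin beta 4, had the highest level of the 10 genes in both libraries. It was listed at 3790.41 and 2606.90 FPKM with 68104 and 49948 counts, a log2 ratio of -0.54 (-0.56 to -0.52). The interval of TMSB10 meets that of ACTB, while each of the remaining genes, TMSB4X among them, has an interval apart from all others. The 2 thymosins therefore moved apart: TMSB4X stood at 1.34 times TMSB10 by TPM in the library labelled untreated and at 2.24 times in the one labelled Dox-treated. Together with PFN1 they went from 7877 to 4784 TPM, and over the sum of the 2 actins this gave 1.35 and 1.74.

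**Figure D1:**
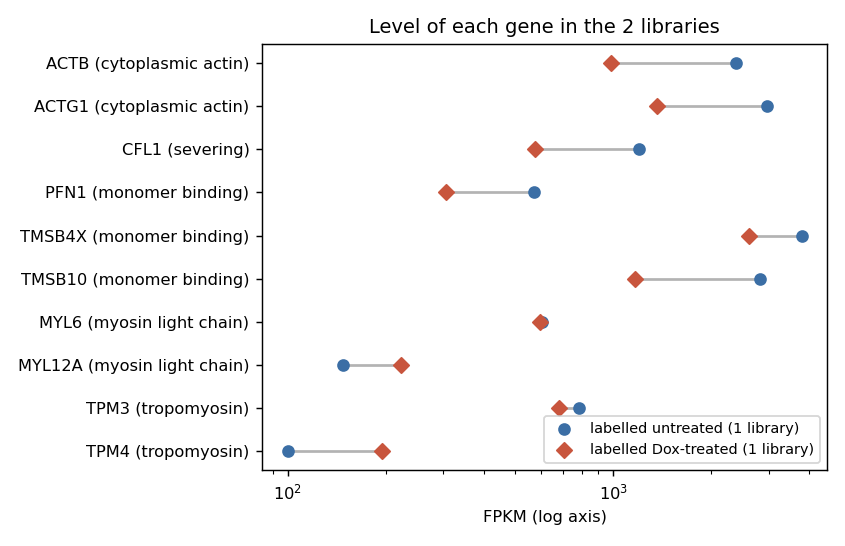
FPKM of each gene on a log axis, with 1 point for the library labelled untreated (circles) and 1 for the library labelled Dox-treated (diamonds). ACTB went from 2375.19 to 981.76 and TMSB10 from 2819.34 to 1164.33, MYL6 hardly moved (603.52 and 595.06), and TPM4 went from 100.04 to 195.16.

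The light chains of myosin II did not share this direction. MYL6 (ENSG00000092841.18, chr12:56158161-56163496, forward strand), the essential light chain, was listed at 603.52 and 595.06 FPKM with 12267 and 12973 counts. Its log2 ratio was -0.02 (-0.06 to 0.02) on FPKM, and it turned to 0.08 on TPM. With TMM factors it was -0.21 and with DESeq2 size factors -0.22. MYL12A (ENSG00000101608.12, chr18:3247481-3256236, forward strand), a regulatory light chain, was listed at 147.66 and 223.05 FPKM with 6219 and 9663 counts, a log2 ratio of 0.59 (0.55 to 0.64). MYL12A has a close neighbour gene of the same function, MYL12B, which was listed at 116.97 and 170.74 FPKM with a log2 ratio of 0.55. Summed with MYL12B, the counts of MYL12A gave 0.55, so the ratio of the pair does not depend on how reads were split between them. By TPM, MYL12A stood at 0.245 and 0.375 of MYL6.

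The 2 tropomyosin genes differed in direction. TPM3 (ENSG00000143549.19, chr1:154155304-154194648, reverse strand) was listed at 786.63 and 679.63 FPKM with 44118 and 38411 counts, a log2 ratio of -0.21 (-0.23 to -0.19). Its mean transcript length in the tables was 1464 and 1406 bases, and counts per library total without a length term gave -0.29. With TMM factors TPM3 was at -0.49 and MYL12A at 0.34, and with DESeq2 size factors they were at -0.50 and 0.33. TPM4 (ENSG00000167460.15, chr19:16067021-16103005, forward strand) was listed at 100.04 and 195.16 FPKM with 9621 and 19945 counts, a log2 ratio of 0.96, its interval starting at 0.93 and ending just below 2-fold. TPM4 went from place 1155 to place 497 of all genes by FPKM, and the TPM of TPM4 relative to TPM3 from 0.127 to 0.287. Since TPM3 was the larger of the pair, their sum was 973 and 1026 TPM, a log2 ratio of 0.08.

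**Figure D2:**
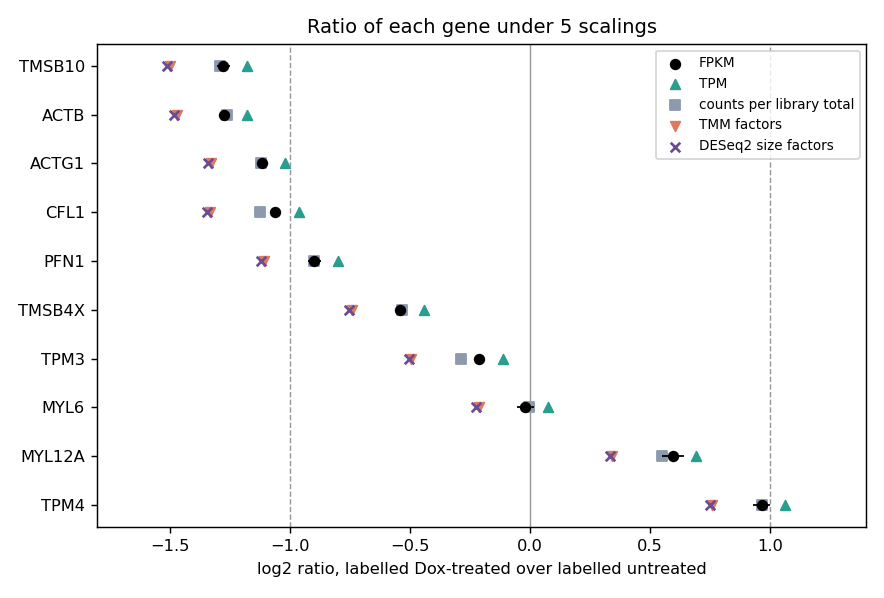
Log2 ratio of each gene (labelled Dox-treated over labelled untreated) on FPKM, with the 95% counting interval as a bar, and under TPM, counts per library total, TMM factors and DESeq2 size factors. Dashed lines mark 2-fold. TMSB10, ACTB and ACTG1 stay past 2-fold under all 5 scalings, and TPM4 passes 2-fold only on TPM (1.06). MYL6 is -0.02 on FPKM, 0.08 on TPM and -0.22 with DESeq2 size factors.

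Across the 10 genes the ratios spanned 2.24 on the log2 scale, with a median of -0.72. Of these ratios, 8 were below 0 and 2 above. Past 2-fold, 4 of 10 were lower (ACTB, ACTG1, CFL1 and TMSB10) and 0 of 10 higher. Over all 14859 genes, 953 were lower (6.41%) and 2521 higher (17.0%). Because ratios of these libraries were in view when the genes were chosen, nothing is read from that difference. The genes nearest the 2-fold line were CFL1 at -1.06 on one side, and PFN1 at -0.90 and TPM4 at 0.96 on the other. With TMM factors the 2521 and 953 genes became 1820 higher and 1355 lower, and with DESeq2 size factors 2030 higher and 1520 lower, and with either 5 of the 10 genes were past 2-fold lower, PFN1 being the added one.

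Abundant RNAs as a whole lay lower than the rest. Among 1104 genes with a mean of at least 100 FPKM, a limit set after the data were seen, 684 (62.0%) had a ratio below 0 and the median was -0.13. Of these, 80 (7.25%) were past 2-fold lower and 66 (5.98%) past 2-fold higher. The ratio of ACTB lay above that of 3.73% of the 14859 genes, the ratio of TMSB4X above 16.7% and that of TPM4 above 82.3%. Relative to the median of all genes, ACTB and TMSB10 were each at -1.43, TMSB4X at -0.69, TPM3 at -0.36, MYL6 at -0.17 and TPM4 at 0.81.

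**Figure D3:**
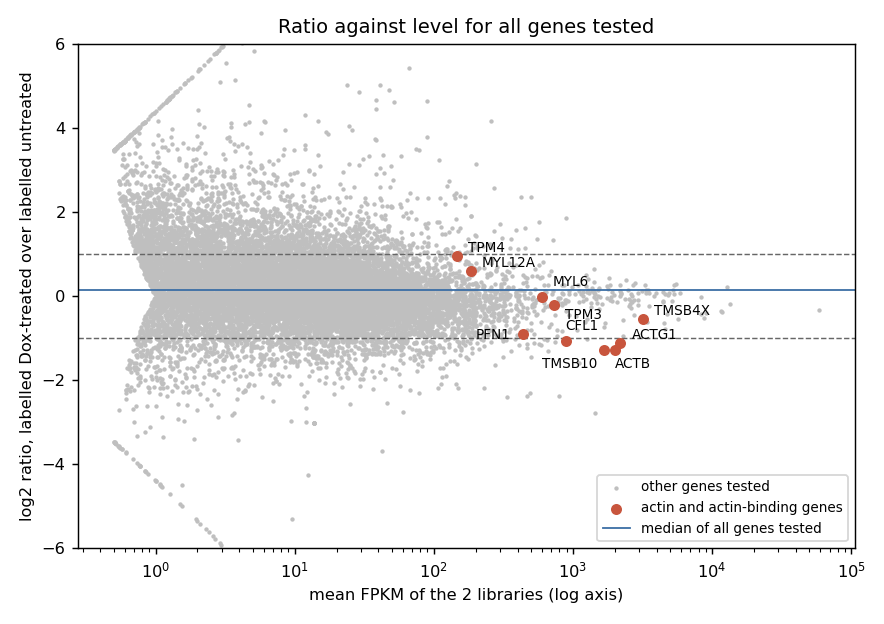
Log2 ratio (labelled Dox-treated over labelled untreated) against the mean FPKM of both libraries on a log axis, for the 14859 genes with at least 1 FPKM in a library (grey, 20 of them beyond the vertical axis) and the 10 genes (red). The solid line is the median of all genes (0.15) and dashed lines mark 2-fold. ACTB, ACTG1, CFL1 and TMSB10 lie under the lower dashed line, and TPM4 lies just under the upper one.

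As a share of the library, the 10 genes took 1.12% of all counts in the library labelled untreated and 0.630% in the one labelled Dox-treated. Exact (Clopper-Pearson) intervals of these shares were 1.12145% to 1.12755% and 0.62811% to 0.632556%. The loss of share lay mainly with the actins, cofilin, profilin and the thymosins, which took 0.967% and 0.464%. The light chains and tropomyosins together took 0.157% and 0.166%. Within that sum TPM3 went from 0.0961% to 0.0788% and TPM4 from 0.0210% to 0.0409%. Per actin RNA, the light chains and tropomyosins stood higher in the library labelled Dox-treated. This was not particular to them. The thymosins with profilin were 1.35 and 1.74 of the actins by TPM, and CFL1 was 0.504 and 0.585 of ACTB. The tropomyosins were 0.166 of the actins by TPM in the library labelled untreated and 0.373 in the other, and the light chains were 0.141 and 0.348. These ratios are formed within a library and do not depend on how the libraries are scaled. The sums of the light chains and of the tropomyosins do depend on it: by counts per library total their log2 ratios were 0.21 and 0.03, and with TMM factors they turned to -0.0018 and -0.18.

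The pseudogenes of these genes that have a row of their own took few counts. The tables list 14 rows named after them, of which 8 had a count, with 137.52 counts in the library labelled untreated and 233.44 in the one labelled Dox-treated. The largest was PFN1P8, with 46.26 and 67.86 counts. Pseudogenes held 0.306% and 0.780% of the summed counts of PFN1, which was the largest such share. Adding their rows left the PFN1 ratio at -0.89 and that of ACTB at -1.26. ACTBP2, ACTG1P20, CFL1P2, PFN1P1 and TMSB10P1, which share stretches of 50 bases with these genes, have no row. Reads from them could not be listed apart.

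The close relatives of these genes were at lower levels per length and did not all take their direction. ACTA2, smooth muscle actin, was listed at 0.22 and 1.53 FPKM with 9.79 and 58.93 counts, a log2 ratio of 2.35 (1.37 to 3.48). It passed the filter only through the library labelled Dox-treated, and its ratio was 1.05 with a pseudocount of 1. ACTA1, skeletal muscle actin, was at 0.77 and 0.71 FPKM. CFL2, the muscle cofilin, was at 4.30 and 5.81 FPKM, and DSTN, or destrin, a further depolymerizing factor, at 17.89 and 18.98 FPKM. PFN2, the second profilin, was at 1.74 and 8.64 FPKM, a log2 ratio of 2.25 (1.97 to 2.53), opposite in sign to PFN1. TMSB15A, a thymosin, was at 30.79 and 18.50 FPKM with a ratio of -0.73, and TMSB15B at 5.49 and 5.05 FPKM with -0.12. MYL6B was at 47.80 and 46.80 FPKM with -0.03. MYL9, the smooth muscle regulatory light chain, was at 0.42 and 0.19 FPKM. TPM1 was at 7.78 and 5.42 FPKM with -0.51, and TPM2 at 1.27 and 0.84 FPKM with -0.54, so TPM4 was the only tropomyosin gene of the 4 with a ratio above 0.

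The wider actin system was read in 14 lists of related genes, compiled with earlier results of these data known. Of 178 listed genes, 134 passed the filter. Their median log2 ratio was -0.15, with 82 below 0, and 14 (10.4%) were past 2-fold lower and 10 (7.46%) higher. Over all genes 41.5% were below 0, 6.41% past 2-fold lower and 17.0% higher. With TMM factors 31 of the related genes were lower and 7 higher, beside 1355 lower and 1820 higher over all genes. None of the list counts was tested.

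Genes that nucleate branched filaments lay on both sides of 0. The Arp2/3 complex starts a new filament on the side of an old one. The 11 genes listed for it, which include alternative and related genes, had a median of -0.00. Past 2-fold there were 0 in either direction (6.41% lower and 17.0% higher over all genes). That median was 0.09 on TPM, -0.21 with TMM factors, -0.22 with DESeq2 size factors and -0.24 over the listed genes with at least 5 FPKM. The furthest was ARPC1B, at 244.01 and 124.68 FPKM with a ratio of -0.97. ARPC5 was at -0.90 and ARPC3 at -0.72, and ARPC2 at 309.50 and 309.08 FPKM. On the other side, ARPC1A was at 0.42, and ACTR3C, with only 108.92 and 142.5 counts, went from 2.13 to 4.07 FPKM, a ratio of 0.90. Of 13 WASP and WAVE activators, which switch that complex on, 1 was past 2-fold lower and 0 higher (6.41% and 17.0% over all genes). It was CYFIP1, at 21.33 and 7.91 FPKM with -1.42. A further list held formins and other genes that serve unbranched filaments, not all of them nucleators. Of 14, 3 were past 2-fold lower and 1 higher (6.41% and 17.0% over all genes). FHOD1 was at -1.68, INF2 at -1.65 and ENAH at -1.21, while DAAM1 went from 4.49 to 22.68 FPKM, a ratio of 2.31.

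Genes that bundle filaments or tie them to the membrane had medians below 0. Of 13 crosslinking and bundling genes, 4 were past 2-fold lower and 1 higher (6.41% and 17.0% over all genes), and the median was -0.61. MARCKSL1, a membrane-bound filament binder, was at 64.15 and 18.17 FPKM with -1.81. ACTN1, alpha-actinin, was at 37.95 and 11.79 FPKM with -1.68. CNN2, calponin, was at -1.38, and TAGLN2, transgelin, at 421.80 and 209.15 FPKM with -1.01. Of 10 membrane and adhesion linkers, MSN, or moesin, was past 2-fold lower at 250.03 and 91.18 FPKM with -1.45. TLN2, a talin, was past 2-fold higher at 0.40 and 1.31 FPKM, passing the filter only through the library labelled Dox-treated. Over all genes 6.41% were past 2-fold lower and 17.0% higher. The median of the linkers was -0.52. VCL, or vinculin, was at 15.16 and 24.28 FPKM with 0.68. EZR, or ezrin, a membrane linker like moesin, was at -0.96, and ZYX, zyxin, at -0.99.

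Among 17 cofilin regulators and turnover genes, 3 were past 2-fold lower and 1 higher (6.41% and 17.0% over all genes), with a median of -0.46. CORO1A, a coronin of blood cells, was at 350.00 and 164.72 FPKM with -1.09, CORO1C at -1.06 and GMFG, which takes branches apart, at -1.07. In the capping and severing list of 11, CAPG was at 14.44 and 6.24 FPKM with -1.20 and AVIL at 2.38 and 7.79 FPKM with 1.67. The myosin II list of 9 had a median of 0.22, turning to -0.00 with DESeq2 size factors, with MYH10 at -0.67 and PPP1R12B at 0.91.

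**Figure D4:**
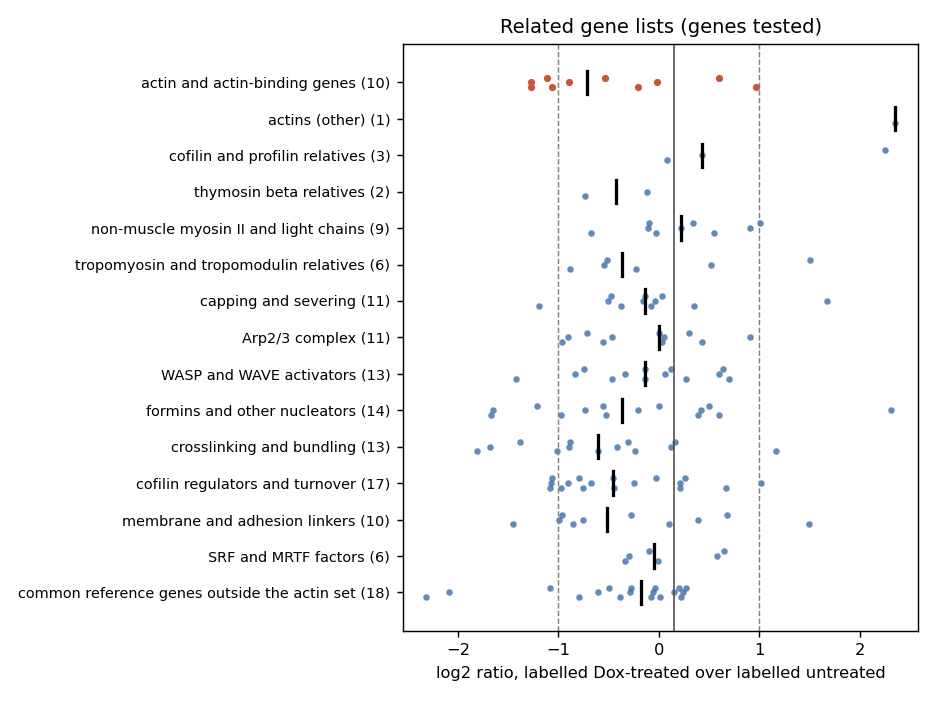
Log2 ratio (labelled Dox-treated over labelled untreated) of each gene that passed the filter, by list, with the number of genes in brackets and the list median as a black bar. The solid line is the median of all genes (0.15) and dashed lines mark 2-fold. The 10 genes (red) have a median of -0.72 and the crosslinking list -0.61, and the Arp2/3 complex -0.00.

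SRF, a transcription factor that binds a DNA motif called the CArG box, and its MRTF partners are known regulators of many actin genes, and free actin monomers hold MRTF back. SRF was listed at 20.11 and 18.82 FPKM with a ratio of -0.10. The MRTF genes appear in the tables under their older symbols MKL1, at 14.62 and 11.84 FPKM with -0.30, and MKL2, at 10.90 and 17.07 FPKM with 0.64. None of the 6 genes of that list that passed the filter was past 2-fold, beside 6.41% lower and 17.0% higher over all genes. A CArG box was searched on both strands of RefSeq promoter windows (GRCh38.p14) of 300 bases, reaching from 250 bases before to 50 after a start site. It was found in 454 of 35116 windows (1.29%). Of 14 windows covering 9 of the 10 genes, 2 held it, and ACTB was not searched. In ACTG1 the box starts 94 bases before the start site, and in TPM4 173 bases before the start site furthest upstream. The TPM4 windows at chr19:16076245-16076544 and chr19:16076766-16077065 held none, and which start site is used was not tested. The 90 bases around each box are shown because ACTG1 and TPM4 lie on opposite sides of 0. The box is in capitals, at chr17:81512844-81512933 (reverse strand) and chr19:16067325-16067414 (forward strand).
ACTG1: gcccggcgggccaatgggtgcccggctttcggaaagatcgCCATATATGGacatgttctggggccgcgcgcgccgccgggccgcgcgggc
TPM4: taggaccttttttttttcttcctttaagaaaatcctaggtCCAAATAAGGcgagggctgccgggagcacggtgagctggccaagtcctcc
A match of these letters is a description of the window, and binding was not measured.

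Since several of these RNAs serve as reference genes, the ratio of SRD5A1 was also expressed against each. With no reference gene, on FPKM alone, it was 0.98. Against ACTB it was 2.26, or 4.78-fold, and against TMSB10 also 2.26. Against ACTG1 it was 4.28-fold. On the log2 scale it was 2.04 against CFL1, 1.88 against PFN1, 1.52 against TMSB4X and 1.19 against TPM3. Against MYL6 it was 2.01-fold, against MYL12A 0.39 on the log2 scale and against TPM4 0.02, or 1.01-fold. All 10 values were above 0, and the size ran from 1.01-fold to 4.79-fold with the gene chosen. Against TPM4 the sign lies within counting error, since the interval of SRD5A1 (0.89 to 1.08) includes the TPM4 ratio of 0.96.

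Other genes in common use as references ran from -2.31 to 0.27 on the log2 scale, and the 10 genes from -1.28 to 0.96. Of 18 such genes, 11 had a ratio within 0.3 of 0, as did 31.6% of all 14859 genes. Their median was -0.18, with 3 past 2-fold lower and 0 higher, beside 6.41% and 17.0% of all genes. GAPDH, the glycolytic enzyme most used beside ACTB, was at -0.80, so SRD5A1 relative to it was 1.78. The lowest were TUBB, a tubulin, at -2.31 and TFRC, the transferrin receptor, at -2.09, followed by HPRT1 at -1.09. The highest was RPLP0, a ribosomal protein, at 0.27, against which SRD5A1 was 0.72. Among the 10 genes, MYL6 was the gene whose ratio was nearest to 0.

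**Figure D5:**
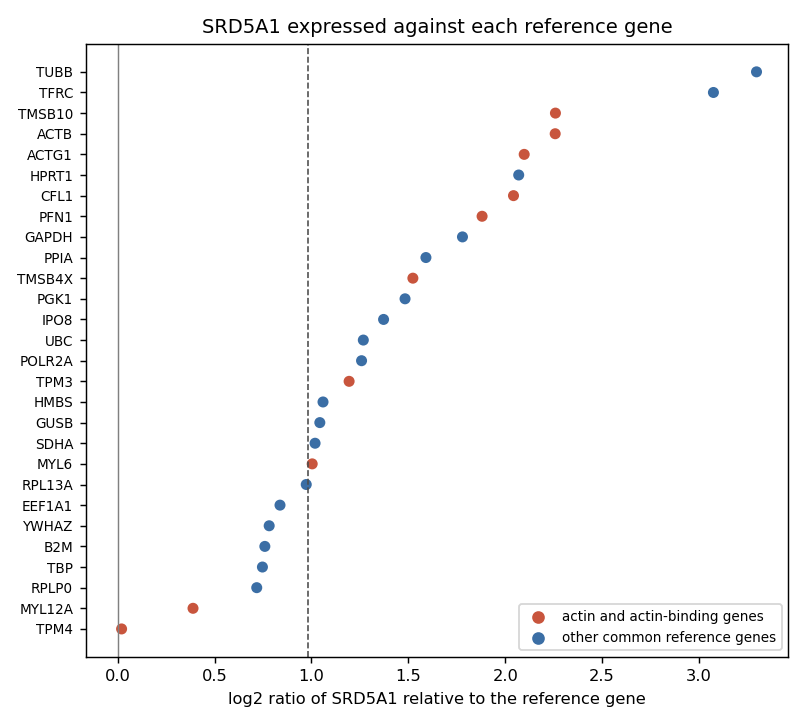
Log2 ratio of SRD5A1 (labelled Dox-treated over labelled untreated) after subtracting the ratio of each reference gene, for the 10 genes (red) and 18 other common reference genes (blue). The dashed line is SRD5A1 with no reference gene (0.98). The values run from 0.02 against TPM4 to 3.30 against TUBB, with ACTB at 2.26.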

How the data were processed

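RNA was sequenced from 1 sample of ARP1-SRD5A1-KD cells labelled untreated and 1 labelled Dox-treated. The 10 genes and the lists of related genes were chosen with earlier results of these data known. Poly(A) RNA was read in pairs on an Illumina NovaSeq, per the labels. The submitters' processing notes name Bowtie 0.12.2, HISAT2 2.1.0, StringTie 1.3.4d and hg19, without their roles. The authors deposited expected counts, in which ambiguous reads are divided among transcripts (14.5% and 15.4% of all listed values, zeros included, were not whole). The authors deposited TPM, which sum to 1000000 and 999999, and FPKM, which sum to 911506 and 852316. The TPM and FPKM scales therefore differ by a constant in each library. The tables carry no coordinates. Their transcript IDs matched GENCODE release 29, whose GRCh38 coordinates are given, and RefSeq (GRCh38.p14) gave the promoter windows.

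Ratios used FPKM plus 0.1 for every gene that reached 1 FPKM in either library. Intervals of single genes are 95% Clopper-Pearson intervals of their expected counts. With 1 library per label no test or p-value is given. In the related lists, up to 4 genes with the largest absolute ratio among those with at least 5 FPKM were named, besides the close relatives of the 10 genes. Of the 14 lists, 1 enters the counts over all lists and is not reported here by itself. ARPC1A, ARPC2, ACTR3C, TLN2, VCL, SRF and RPLP0 were named after their values were seen. Counts per library total (counts per 1000000), TPM, edgeR 4.0.16 TMM factors and DESeq2 1.42.0 size factors (R 4.3.3, expected counts rounded, at least 10 counts over both libraries) were alternatives, as were pseudocounts of 1 and 0.01, no filter, a filter of 5 FPKM and adding pseudogene counts. Python 3.11.15, pandas 2.3.3, numpy 2.4.6, scipy 1.17.1 and matplotlib 3.10.9 were used, and the ratio step was tested on simulated data.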

Additional observations from a re-analysis of the deposited data

How the results depend on the processing

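No paired analysis was possible because each group is a single library. The 10 genes kept the sign of their ratio under every alternative except MYL6 on TPM (0.08). Their median of -0.72 became -0.62 on TPM, -0.92 with TMM factors and -0.94 with DESeq2 size factors. Genes past 2-fold higher among the 10 went from 0 to 1 on TPM (TPM4), where CFL1 at -0.96 no longer passed 2-fold. Over all genes, 953 lower and 2521 higher became 1897 and 4735 with no filter and 603 and 1256 with at least 5 FPKM. A pseudocount of 1 gave 651 lower and 1606 higher, TMM factors 1355 and 1820, and DESeq2 size factors 1520 and 2030. Of the related genes, 14 lower became 31 with TMM factors and 33 with DESeq2 size factors, and 10 higher became 5 with a pseudocount of 1 and 4 with at least 5 FPKM. The median over the other actins reversed from 2.35 (1 gene) to -0.031 with no filter, which still left out genes without a count in either library. No gene of that list reached 5 FPKM. Leaving out a library was not possible with 1 per label. Depth does not limit the ratios of the 10 genes, each with at least 6219 counts per library, but the spread between replicates is unknown.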
